A study of Rattus norvegicus with 12 samples.

Results

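Receptor tyrosine kinases are cell-surface proteins through which growth factors instruct a cell. The 43 genes described here encode such receptors, and they were followed in cultured skin precursors across 4 treatment groups. A gene was measured by the array feature that carried its symbol alone, and 40 of the 43 had such a feature, among 18166 genes measured in the same way. Of these 40, 36 lay above the limit set for low signal, a mean log2 value of 5.83, and were tested among 13636 genes. The cells were skin-derived precursors (SKPs), dermal precursor cells that grow as floating spheres, taken from newborn Sprague-Dawley rats. The secondary spheres were dissociated and the cells were kept for 24 h with vehicle, with 100 nM alprostadil, with 100 nM trimebutine maleate, or with 100 nM trimebutine maleate and 100 nM trametinib together. Alprostadil is prostaglandin E1, trimebutine maleate is a gut motility drug, and trametinib inhibits the kinase MEK. No group received trametinib alone, so its effect can be read only on top of trimebutine. All groups shared a growth medium with 40 ng/ml FGF2 and 20 ng/ml EGF, which are ligands of the FGF receptors and of Egfr. This medium also held the supplement B27, at 2% in every group, and the cell density was 50000 per ml throughout. The part of B27 in the receptors' values was not tested. Each group had 3 arrays, labelled as biological replicates 1 to 3, and the study's text speaks of 3 isolates. How many pups went into an isolate is not given in the sources used here. Values are log2 expression values from Affymetrix Rat Gene 2.0 ST arrays, differences are differences of group means with the standard error (SE) of a limma fit, and n = 3 arrays per group throughout.

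A receptor tyrosine kinase binds its ligand outside the cell, pairs with a second receptor, and phosphorylates tyrosines inside the cell. Adaptor proteins dock there and switch on RAS, which passes the signal through RAF and MEK to ERK, and PI3-kinase, which leads to AKT. MEK therefore lies below these receptors. ERK in turn induces genes that damp the pathway, such as those of the Sprouty proteins and of the Dusp phosphatases. In skin, Pdgfra marks dermal mesenchyme, Kit marks melanocytes, Tek and Tie1 mark endothelium, and Csf1r marks macrophages.

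All 14 dermal precursor and fibroblast markers that had a feature lay above the low-signal limit. Without the member Pdgfra the other 13 had mean log2 values of 11.24 to 11.58 on the 12 arrays. Markers of other cell types were in part under the limit. Of the 8 endothelial markers with a feature, 6 passed the limit, with mean values of 6.05 to 6.24 on the arrays, and Tek and Tie1 did not. Among keratinocyte markers 6 of 9 passed, without Dsg3, Tp63 and Epcam, and among Schwann cell and melanocyte markers 7 of 11 passed, without Cdh19, Kit, Tyrp1 and Mlana. Of the mural and smooth muscle markers, 8 of 8 with a feature passed. Of the macrophage and leukocyte markers, 14 of 15 passed, and the 13 that are no members had means of 7.77 to 8.87 on the vehicle arrays. Of all 18166 genes 13636 passed this limit, so passing it does not show that a cell type was present. Array medians ran from 6.409 to 6.505, and the correlation of arrays within a group was 0.989 to 0.995 over genes, which are not independent replicates.

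Trametinib added to trimebutine moved 17 of the 36 tested receptors. Transcripts of 10 rose and those of 7 fell, and 19 did not pass an adjusted p of 0.05. Across all genes tested in this comparison 33.4% passed, 16.8% upward and 16.6% downward, beside 47.2% of the receptors. The receptors' median difference was 0.09, beside 0.03 for all genes. The rises include Ret, which cleared the low-signal limit only through the trametinib arrays. The arrays of 22 of the 36 did not overlap between the groups, beside 45.8% of all genes. With the replicate number as a block, 14 receptors rose and 9 fell, where 42% of all genes passed, 21.2% upward and 20.8% downward. The rises were led by Ephb3, Ephb2 and Insr and the falls by Epha2, Met and Ntrk2. Against vehicle, 11 receptors rose and 6 fell (47.2% of 36), where 35% of all genes passed, 17.5% upward and 17.5% downward. Of these receptors, 16 had the same call against trimebutine. These comparisons share the arrays of trimebutine with trametinib, as does the one against alprostadil. In whole cultures, fewer cells of a type and less RNA per cell cannot be told apart. The dermal precursor and fibroblast markers other than Pdgfra also stood higher in this group, at 11.53 to 11.58 on its arrays and 11.24 to 11.41 on all others. Among the 6 Schwann cell and melanocyte markers that are no members, the mean was 7.54 to 7.62 on the trametinib arrays and 7.25 to 7.54 on the others. Of that list Dct, a melanocyte gene, rose by 0.31 (adjusted p = 0.013) when trametinib was added. Its group means were 5.71 with vehicle, 5.85 with alprostadil, 5.90 with trimebutine and 6.21 with trametinib added. Dct thus cleared the low-signal limit of 5.83 only through the trametinib arrays, so the filter itself favours its rise. S100b, a Schwann cell gene, differed by 0.58 (adjusted p = 0.243) and passed with the replicate number as a block (adjusted p = 1.45e-05). The others of that list, Foxd3 (0.14), Sox10 (0.07), Mitf (−0.02) and Pmel (−0.09), did not pass in either fit. The mean of the 7 mural and smooth muscle markers that are no members was 7.98 to 8.15, beside 7.49 to 7.80 on the other arrays, and 1 of them passed. This was Tagln, a smooth muscle actin-binding protein gene, which rose by 2.37 (adjusted p = 3.84e-06), while Des (−0.34), Rgs5 (−0.17) and Notch3 (−0.17) had values below 0 and did not pass. Cspg4, a pericyte gene, differed by 0.32 (adjusted p = 0.149) and passed with the block (adjusted p = 0.00129). The part of these shifts in the receptors' values was not tested.

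**Figure D1:**
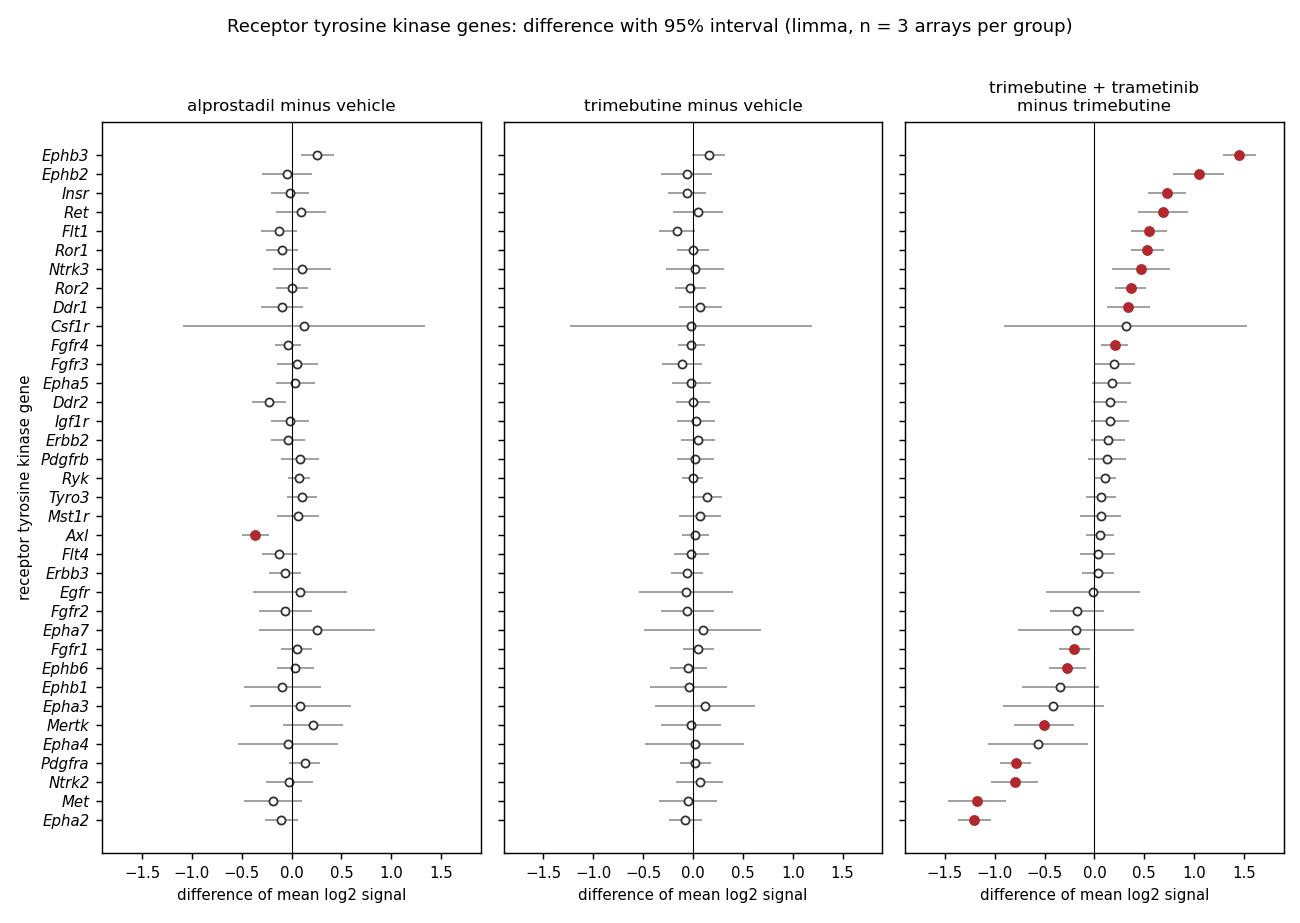
Difference of mean log2 expression (horizontal axis) of the 36 tested receptor genes for alprostadil minus vehicle, trimebutine minus vehicle, and trimebutine with trametinib minus trimebutine. Bars are the 95% confidence interval of the limma fit, with 3 arrays per group, and filled points passed an adjusted p of 0.05: Axl alone with alprostadil, none with trimebutine, and 17 with trametinib added, from −1.20 for Epha2 to 1.45 for Ephb3.

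Of 15 genes that report ERK output, 12 fell and 1 rose when trametinib was added, where 33.4% of all genes passed. The ERK phosphatase gene Dusp6 fell by 3.23 (adjusted p = 4e-08), Dusp5, of the same family, fell by 3.00 (adjusted p = 2.49e-09), and the early response gene Egr1 fell by 2.55 (adjusted p = 1.61e-05). Spry2, a Sprouty gene, rose by 0.58 (adjusted p = 3.93e-05).

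Among the EphA receptors, which bind ephrin-A ligands on neighbouring cells, Epha2 moved most. Epha2 read 8.21, 7.99 and 8.17 with vehicle, 8.00, 7.94 and 8.12 with alprostadil, 8.13, 7.95 and 8.05 with trimebutine, and 6.84, 6.80 and 6.88 with trimebutine and trametinib. The 3 arrays with trametinib lay below the other 9, which overlapped one another. Epha2 thus fell by 1.20 (SE 0.08, adjusted p = 4.52e-07) when trametinib was added, a 2.31-fold fall. The other 4 EphA receptors did not pass in the fit without the replicate number. Epha4 read 9.62, 9.11 and 8.91 with trimebutine and 8.72, 8.73 and 8.51 with trametinib added, a difference of −0.57 (adjusted p = 0.0783). With the replicate number as a block, Epha4 passed (adjusted p = 0.00106), as did Epha3 (−0.41, adjusted p = 0.00269) and Epha5 (0.17, adjusted p = 0.0474). In Epha4 the groups did not overlap, while in Epha3 the spread between replicate numbers, described further on, was wider than the difference. Epha7, at −0.19, did not pass in either fit.

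The EphB receptors, which bind ephrin-B ligands, went in both directions. Ephb3 read 6.77, 7.05 and 6.95 with vehicle, 7.12, 7.22 and 7.20 with alprostadil, 6.98, 7.11 and 7.15 with trimebutine, and 8.52, 8.56 and 8.53 with trametinib added. All 3 arrays with trametinib were above all others, and they differed among themselves by less than those of any other group. The rise of Ephb3 was 1.45 (SE 0.08, 2.74-fold, adjusted p = 1.23e-07), the largest among the 36 receptors in this comparison. Ephb2 read 7.72, 8.01 and 7.89 with trimebutine and 8.66, 9.00 and 9.11 with trametinib added, while the vehicle and alprostadil arrays lay between 7.78 and 8.03. No array of Ephb2 without trametinib reached those with it, and the rise was 1.05 (SE 0.12, 2.06-fold, adjusted p = 3.3e-05). Ephb6, whose kinase domain is inactive, fell by 0.27 (SE 0.09, adjusted p = 0.0277), from 6.64, 6.79 and 6.60 to 6.48, 6.46 and 6.27. The Ephb6 arrays did not overlap, but it no longer passed without trimebutine replicate 1 or 2 or without replicate 3 of the trametinib group. Its fall was also lost with median scaling and with only the compared groups in the fit (adjusted p up to 0.109 over all settings). Ephb1 differed by −0.34 (adjusted p = 0.168) and did not pass in any comparison.

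Pdgfra, the PDGF receptor of the dermal mesenchyme, was among the receptors that fell. Its arrays read 12.52, 12.45 and 12.50 with vehicle, 12.69, 12.56 and 12.61 with alprostadil, 12.52, 12.50 and 12.53 with trimebutine, and 11.87, 11.59 and 11.72 with trametinib added. The trametinib arrays were the lowest 3 of 12. Pdgfra fell by 0.79 (SE 0.07, 1.73-fold, adjusted p = 6.61e-06), and the fall was between 0.65 and 0.92 within each replicate number. It went against other markers of the dermal precursor and fibroblast list, in which 7 rose and 2 fell. Among all genes 33.4% passed. Those that rose included the collagen genes Col3a1 (0.97), Col1a2 (0.59) and Col1a1 (0.56), and Twist1 (−0.29) fell besides Pdgfra. Pdgfrb, the other PDGF receptor, differed by 0.13 (adjusted p = 0.291) and did not pass in any comparison. Csf1r, the receptor of the macrophage factor CSF1 and a relative of the PDGF receptors, differed by 0.31 (adjusted p = 0.715). With the replicate number as a block Csf1r passed (adjusted p = 0.0307), with differences of 0.43, 0.47 and 0.04 in replicates 1, 2 and 3.

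Met, the receptor of hepatocyte growth factor, fell by 1.17 (SE 0.13, 2.26-fold, adjusted p = 3.94e-05). Met read 8.16, 8.43 and 8.16 with vehicle, 7.91, 8.00 and 8.25 with alprostadil, 8.07, 8.41 and 8.13 with trimebutine, and 6.80, 7.08 and 7.20 with trametinib added. The ranges with and without trametinib did not overlap. Its relative Mst1r, the receptor of macrophage-stimulating protein, differed by 0.06 (adjusted p = 0.668). Among the TAM receptors, which bind Gas6 and protein S and take part in the clearance of dying cells, Mertk fell and Axl and Tyro3 did not pass. Mertk read 7.06, 6.84 and 7.25 with trimebutine and 6.30, 6.54 and 6.81 with trametinib added, a fall of 0.51 (SE 0.14, adjusted p = 0.0141). The lowest trimebutine array of Mertk was close to the highest trametinib array, and without trimebutine replicate 3 or without replicate 1 of the trametinib group Mertk no longer passed (adjusted p up to 0.0571). Axl differed by 0.06 (adjusted p = 0.544) and Tyro3 by 0.06 (adjusted p = 0.511), although Tyro3 rose by 0.20 against vehicle (adjusted p = 0.0351). The rise of Tyro3 was lost when vehicle replicate 1 or 2, or any one of the trametinib arrays, was left out. It was also lost without the low-signal limit, with the other eBayes setting of limma, and with only the compared groups in the fit (adjusted p up to 0.124 over all settings).

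The neurotrophin and GDNF receptors all passed, in opposite directions. Ntrk2, the TrkB receptor of BDNF, read 7.38, 7.28 and 7.45 with trimebutine and 6.58, 6.42 and 6.72 with trametinib added, and lay between 7.14 and 7.49 on the vehicle and alprostadil arrays. Its trametinib arrays were the lowest 3, and it fell by 0.80 (SE 0.11, 1.74-fold, adjusted p = 0.000138). Ntrk3, the TrkC receptor of neurotrophin-3, rose by 0.47 (SE 0.13, adjusted p = 0.0182), from 6.26, 5.91 and 6.34 to 6.43, 6.62 and 6.85. The ranges of Ntrk3 did not overlap, but its rise did not pass without trimebutine replicate 2 or without replicate 3 of the trametinib group (adjusted p up to 0.0745). Ret, which signals for GDNF family ligands together with a Gfra co-receptor, read 5.67, 5.79 and 5.88 with trimebutine and 6.54, 6.53 and 6.34 with trametinib added. Ret rose by 0.69 (SE 0.11, 1.62-fold, adjusted p = 0.000657). It passed the low-signal limit only through the trametinib arrays, since 5 of the other 9 arrays were under the limit and their mean was 5.78, so the filter itself favours a rise of Ret.

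Insr, the insulin receptor, rose, while Igf1r, its relative for IGF1, did not pass in this comparison. Insr read 8.50, 8.44 and 8.28 with vehicle, 8.49, 8.40 and 8.28 with alprostadil, 8.49, 8.34 and 8.20 with trimebutine, and 9.10, 9.03 and 9.09 with trametinib added. Before trametinib the values followed the replicate number, with replicate 1 highest and replicate 3 lowest in each group, and with it all 3 lay together above the rest. The rise of Insr was 0.73 (SE 0.09, 1.66-fold, adjusted p = 5.62e-05). Igf1r differed by 0.16 (adjusted p = 0.198), and it passed against vehicle (0.18, adjusted p = 0.0359) and against alprostadil (0.20, adjusted p = 0.0235) with the replicate number as a block.

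The Wnt-binding receptors Ror1 and Ror2, which respond to Wnt5a, both rose. Ror1 read 9.16, 9.17 and 9.13 with trimebutine and 9.73, 9.77 and 9.57 with trametinib added, a rise of 0.53 (SE 0.07, 1.45-fold, adjusted p = 0.00018). Ror2 read 9.53, 9.53 and 9.66, then 9.81, 9.95 and 10.05, a rise of 0.36 (SE 0.07, adjusted p = 0.00215). In both receptors the trametinib arrays lay above all 9 others. Ryk, a Wnt receptor with an inactive kinase, differed by 0.11 (adjusted p = 0.112) and passed in no comparison. Flt1, a VEGF receptor that binds VEGF tightly and signals weakly, read 7.30, 7.39 and 7.48 with trimebutine and 7.79, 8.11 and 7.91 with trametinib added. It rose by 0.55 (SE 0.08, 1.46-fold, adjusted p = 0.000379), with no overlap with any other group. Flt4, the receptor of VEGF-C and VEGF-D, differed by 0.03 (adjusted p = 0.785). None of the 6 tested endothelial markers passed in this comparison, while Tek, which lies under the low-signal limit, passed without that limit (0.40, adjusted p = 0.038).

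The collagen receptor gene Ddr1 rose by 0.34 (SE 0.10, adjusted p = 0.0187), from 6.70, 6.87 and 6.92 to 7.17, 7.16 and 7.17. The groups did not overlap, and the rise of Ddr1 did not pass without trimebutine replicate 1 (adjusted p = 0.0784). Ddr2, the receptor of fibrillar collagens, differed by 0.16 (adjusted p = 0.145) and passed with the replicate number as a block (adjusted p = 0.0285). Of the FGF receptors, whose ligand FGF2 was in the medium, 1 rose and 1 fell. Fgfr4 rose by 0.20 (SE 0.06, adjusted p = 0.022), from 6.23, 6.28 and 6.32 to 6.48, 6.49 and 6.48. Fgfr1 fell by 0.20 (SE 0.07, adjusted p = 0.0474), from 11.31, 11.48 and 11.33 to 11.09, 11.24 and 11.20. The arrays of neither receptor overlapped. Both are small changes, and the fall of Fgfr1 did not pass when any one of the 6 arrays was left out. It was also lost without the low-signal limit, with median scaling, and with only the compared groups in the fit (adjusted p up to 0.176 over all settings). The rise of Fgfr4 did not pass without trimebutine replicate 1 or 2 or without replicate 1 or 2 of the trametinib group. This rise was also lost with the other eBayes setting of limma (adjusted p up to 0.0817 over all settings). Fgfr3 differed by 0.20 (adjusted p = 0.117) and passed with the block (adjusted p = 0.0242), and Fgfr2 differed by −0.18 (adjusted p = 0.307). The ErbB receptors that were tested did not pass, with Egfr at −0.02, Erbb2 at 0.14 and Erbb3 at 0.03.

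**Figure D2:**
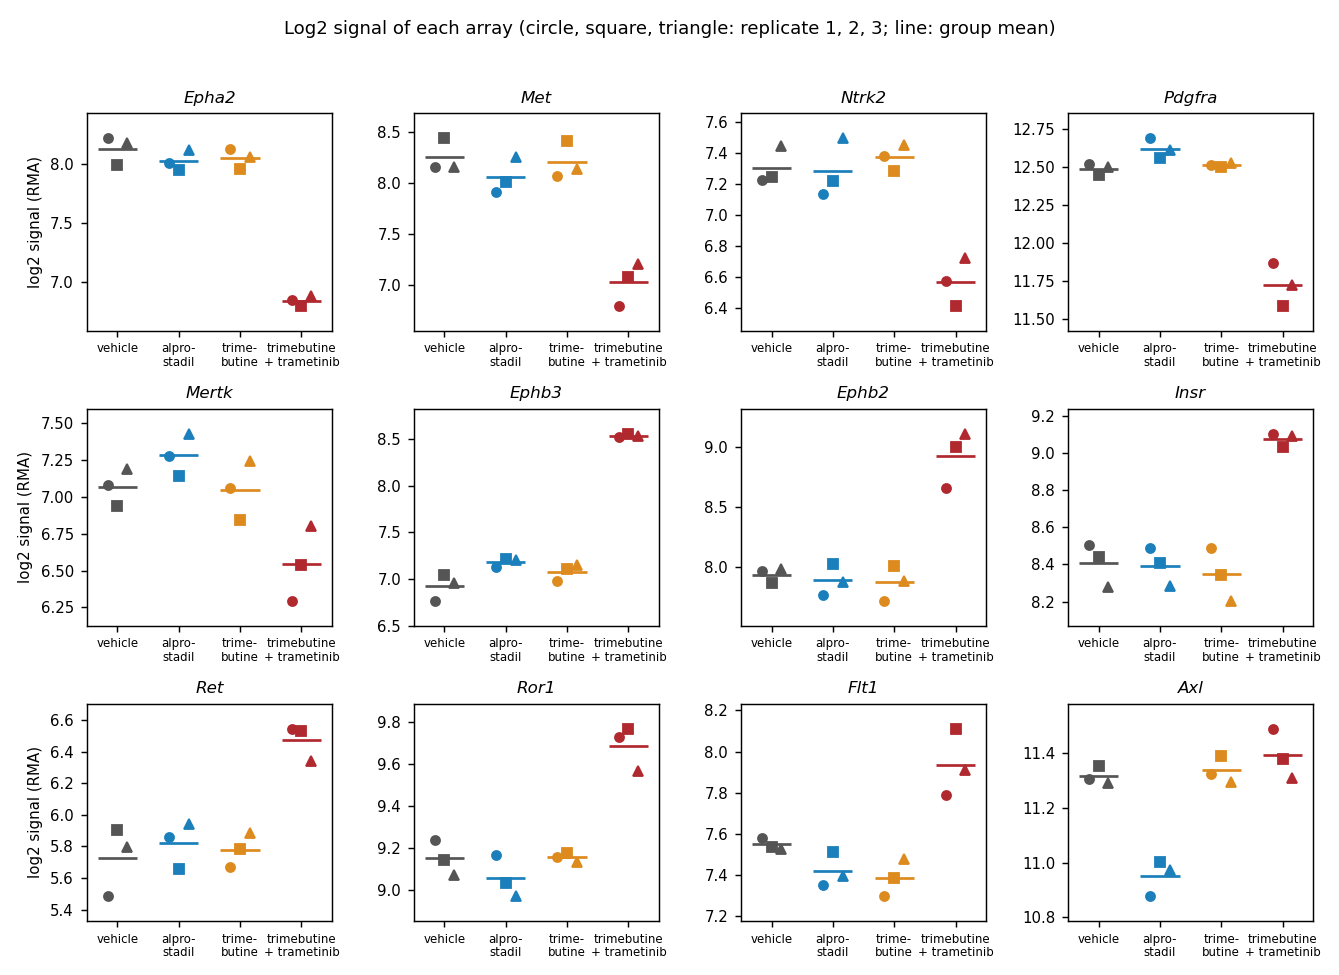
Log2 expression (vertical axis, a separate scale for each gene) on each of the 12 arrays for 12 receptor genes in the 4 treatment groups, with symbols for the replicate number and lines for group means. The trametinib arrays stand apart from all others in each gene shown but Axl, for which the alprostadil arrays, at 10.88 to 11.00, are the low ones.

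Against alprostadil, trimebutine with trametinib raised 13 receptors and lowered 7, which is 55.6% of the 36, where 37.9% of all genes passed, 19.6% upward and 18.2% downward. Ephb3 differed by 1.35 and Ephb2 by 1.03, and Epha2 by −1.18, Met by −1.03 and Pdgfra by −0.90. Receptors that rose here and not against trimebutine were Axl (0.44, adjusted p = 0.000184), Ddr2 (0.38, adjusted p = 0.00241) and Erbb2 (0.22, adjusted p = 0.0418). Ddr2 read 11.04, 11.11 and 11.26 with alprostadil, the lowest 3 of its arrays, and 11.51, 11.45 and 11.60 with trametinib. Erbb2 read 7.51, 7.74 and 7.79 against 7.99, 7.81 and 7.91. Without alprostadil replicate 1 or 2, or without replicate 1 or 3 of the trametinib group, Erbb2 did not pass. It was also lost without the low-signal limit and with only the compared groups in the fit (adjusted p up to 0.147 over all settings). With the replicate number as a block 25 receptors passed, where 46.4% of all genes did. Egfr (−0.17, adjusted p = 0.0268), Epha3 (−0.37, adjusted p = 0.00418), Epha4 (−0.51, adjusted p = 0.00179) and Epha7 (−0.34, adjusted p = 0.00466) were lower in that fit as well. Against vehicle the block gave 24 receptors, where 43.2% of all genes passed, and added Csf1r (0.29, adjusted p = 0.039), Ddr2 (0.16, adjusted p = 0.0279), Epha3 (−0.29, adjusted p = 0.0182), Epha4 (−0.55, adjusted p = 0.00128), Fgfr1 (−0.15, adjusted p = 0.0279) and Fgfr2 (−0.23, adjusted p = 0.0151) besides Igf1r.

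Alprostadil changed 1 receptor, Axl. The Axl arrays read 11.31, 11.35 and 11.29 with vehicle, 10.88, 11.00 and 10.97 with alprostadil, 11.33, 11.39 and 11.30 with trimebutine, and 11.49, 11.38 and 11.31 with trametinib added. The 3 alprostadil arrays were the lowest of the 12, and the difference had the same sign in each replicate number, from −0.43 to −0.32. Axl fell by 0.37 (SE 0.06, 95% confidence interval −0.50 to −0.23, adjusted p = 0.0286), a 1.29-fold fall. Among all genes 0.389% passed in this comparison, 0.323% upward and 0.066% downward, and 1 of 36 receptors is 2.78%. With the block Axl was still the 1 receptor called, where 1.88% of all genes passed. The call did not pass when any one of the 6 arrays was left out (adjusted p up to 0.165). The mean of the mural and smooth muscle markers other than Pdgfrb was also lower on the alprostadil arrays, at 7.49 to 7.56 beside 7.69 to 7.80 with vehicle. Tagln differed by −0.66 (adjusted p = 0.338) and Cspg4 by −0.65 (adjusted p = 0.172), and both passed with the block (adjusted p = 0.0165 for Tagln and 0.000426 for Cspg4). The other 5 lay between −0.12 and 0.08 and did not pass. The macrophage gene Adgre1 differed by −0.83 (adjusted p = 0.0951) and the dermal gene Twist2 by 0.33 (adjusted p = 0.102), and with the block both passed (adjusted p = 0.00544 for Adgre1 and 0.0159 for Twist2). Their lists did not shift as a whole. Without members, the macrophage and leukocyte mean was lower with alprostadil than with vehicle in replicate 1 and higher in replicates 2 and 3. The dermal precursor and fibroblast mean had the same signs, and in both lists the alprostadil and vehicle arrays overlapped. The part of these markers in the value of Axl was not tested. The groups of 6 further receptors did not overlap, with 11.6% of all genes doing so, and none of them passed. These were Ephb3 (0.26, adjusted p = 0.298), Pdgfra (0.13), Ryk (0.07), Ddr2 (−0.22, adjusted p = 0.514), Flt1 (−0.13) and Flt4 (−0.12).

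Trimebutine alone changed no receptor past the threshold, and no gene of the 13636 (0%). At an unadjusted p under 0.05 the limma fit gave 143 genes, none of them a receptor, and 252 genes with the replicate number as a block. The receptors' differences from vehicle ran from −0.16 for Flt1 to 0.16 for Ephb3. Flt1 was the 1 receptor whose arrays did not overlap between the groups, beside 4.23% of all genes, at 7.58, 7.54 and 7.53 with vehicle and 7.30, 7.39 and 7.48 with trimebutine. For Csf1r the 95% confidence interval ran from −1.24 to 1.20 and for Epha7 from −0.49 to 0.68. Outside Csf1r, Epha7, Epha3, Egfr and Epha4, no bound of the 95% confidence interval lay beyond −0.43 or 0.34. All these bounds are from the fit without the block, so their width includes the spread between replicate numbers. Replicate number held 94.1% of the variance of Csf1r and 80.8% of that of Epha7, and their wide intervals are no measure of trimebutine within a replicate number.

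Some receptors followed the replicate number more than the drug. The labels do not say which isolate a number stands for, so isolate and any other factor shared by a number cannot be told apart. Csf1r read 7.47, 8.22 and 9.04 in replicates 1, 2 and 3 with vehicle, 7.44, 8.45 and 9.21 with alprostadil, 7.32, 8.35 and 9.01 with trimebutine, and 7.75, 8.81 and 9.05 with trametinib added. All 4 arrays of a number lay apart from those of the other numbers, and replicate number held 94.1% of the variance of Csf1r over the 12 arrays, beside 3.5% for treatment. The 13 macrophage and leukocyte markers that are no members went the same way, with means of 7.77, 8.18 and 8.87 in the vehicle arrays of replicates 1, 2 and 3 and 7.60, 8.29 and 8.51 with trametinib added. Their part in the values of Csf1r was not tested. Among these markers, Cd68 fell by 1.03 (adjusted p = 5e-05) and the complement gene C1qa rose by 0.52 (adjusted p = 0.00557) when trametinib was added, and 12 of 14, Csf1r included, did not pass. With the block 3 rose and 3 fell, with Cd14 (−0.68, adjusted p = 0.000482), Ptprc (−0.47, adjusted p = 0.00425), C1qb (0.28, adjusted p = 0.007) and Csf1r added. Of all genes 33.4% passed without the block and 42% with it. Egfr, the receptor of the EGF in the medium, had the opposite order, at 10.61, 10.22 and 9.97 with vehicle and 10.44, 10.18 and 9.91 with trametinib added. Its numbers did not overlap either, and replicate number held 90.9% of its variance.

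Replicate number also held more than 50% of the variance of Epha7 (80.8%), Epha3 (66.8%), Fgfr2 (59.2%) and Pdgfrb (55.8%). Such receptors were 6 of 36, or 16.7%, beside 10.1% of all genes tested. Epha3 was lowest in replicate 1 (7.52 with vehicle) and highest in replicate 3 (8.28), and Epha7 was lowest in replicate 2 (7.39) and highest in replicate 3 (8.29). At the other end, treatment held 98.8% of the variance of Ephb3, 98.2% of that of Epha2, 96.8% of that of Pdgfra and 92% of that of Axl. Treatment held more than 50% in 22 of 36 receptors (61.1%), beside 49.7% of all genes. These shares describe the 12 arrays and carry no test. Compared within each replicate number, the difference on adding trametinib was above 0 in all 3 for 18 receptors, below 0 in all 3 for 12 and mixed for 6, while 61.6% of all genes had 1 sign throughout.

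**Figure D3:**
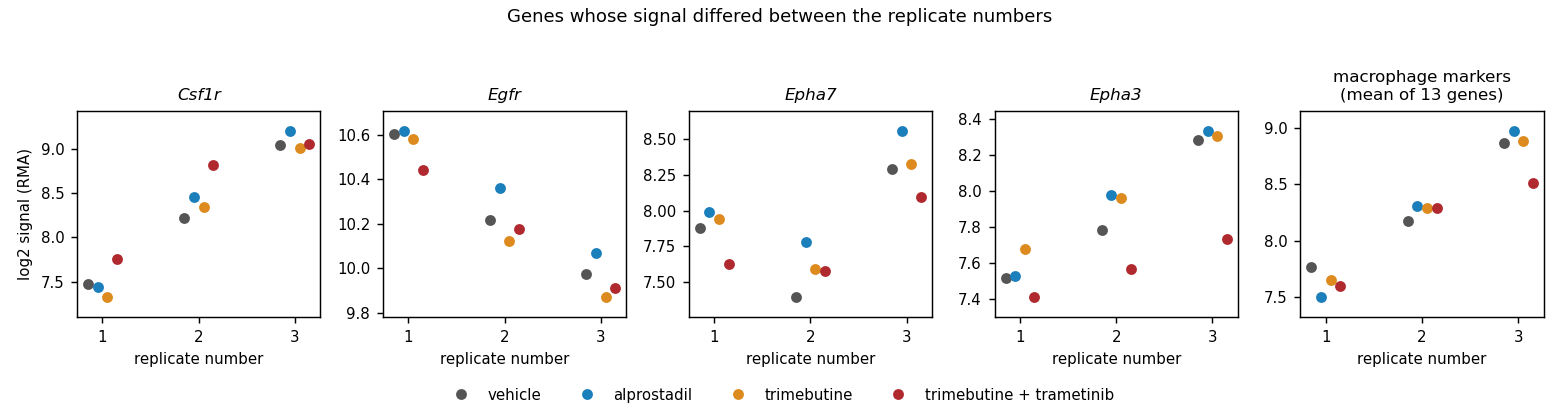
Log2 expression (vertical axis, a separate scale for each panel) by replicate number (horizontal axis) for Csf1r, Egfr, Epha7, Epha3 and the mean of 13 macrophage and leukocyte markers, with each array coloured by treatment. Csf1r and the markers are lowest in replicate 1 and highest in replicate 3 in every treatment, and Egfr runs the other way.

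Of the 43 receptors, 7 were not tested. Kdr, Ptk7 and Ephb4 had no feature with their symbol alone. Erbb4, Kit, Tek and Tie1 had means of 5.31, 5.62, 5.81 and 5.64, under the limit of 5.83. Without that limit Tek, the angiopoietin receptor, also passed against vehicle (0.61, adjusted p = 0.004). Its arrays read 5.72, 5.86 and 5.86 with trimebutine and 6.32, 6.33 and 6.01 with trametinib, so it was seen above the limit mainly where it was high. Kit, the receptor of stem cell factor, differed by 0.29 (adjusted p = 0.0921) when trametinib was added.

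The genes around the receptors were described from lists of their partners. Of 45 tested ligands, 8 rose and 15 fell when trametinib was added (51.1%, median −0.06), and 22 did not pass. Among all genes 33.4% passed. Pdgfd, a ligand of Pdgfrb, rose most. It read 6.72, 7.04 and 6.94 with trimebutine and 10.62, 10.50 and 10.28 with trametinib added, far above every other array, and rose by 3.57 (adjusted p = 5.47e-09). Fgf7, which stimulates keratinocytes, rose by 1.69 (adjusted p = 6.62e-05), and Vegfd by 1.58 (adjusted p = 4.21e-05). Pdgfc, a ligand of Pdgfra, fell by 1.51 (adjusted p = 0.00155), Wnt5a by 1.45 (adjusted p = 0.000372) and Vegfa by 1.21 (adjusted p = 4.52e-07).

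The ligands of receptors that moved went in both directions. The ligand gene Pdgfc fell with its receptor Pdgfra, and Hgf (−0.54, adjusted p = 0.000709) with Met. Wnt5a fell while Ror1 and Ror2 rose, and Vegfa fell while Flt1, a receptor of its product, rose. Vegfb, which also binds Flt1, rose by 0.36 (adjusted p = 0.00115). Gdnf fell by 0.24 (adjusted p = 0.0185) while Ret rose. For the EphB receptors, the ligand genes Efnb2 (0.43, adjusted p = 0.00673) and Efnb3 (0.25, adjusted p = 0.0228) rose and Efnb1 (−0.34, adjusted p = 0.0439) fell. For Mertk, the protein S gene Pros1 rose by 0.59 (adjusted p = 0.000286) and Gas6 differed by −0.34 (adjusted p = 0.222) and passed with the block (adjusted p = 0.00388). For Csf1r, Il34 rose by 0.30 (adjusted p = 0.01) and Csf1 fell by 0.36 (adjusted p = 0.00498). These pairs were set side by side as they were measured, with no test of any pair. With alprostadil, 2 ligands rose, where 0.389% of all genes passed. The EGF receptor ligand gene Areg went from 6.61, 6.62 and 6.48 to 8.11, 7.74 and 7.18 (1.11, adjusted p = 0.0374), and Vegfa from 10.99, 10.91 and 10.80 to 11.67, 11.67 and 11.54 (0.73, adjusted p = 0.00226). In both the alprostadil arrays lay above all 9 others. Neither Egfr (0.09) nor Flt1 (−0.13) passed there. With the block 6 ligands rose and 2 fell with alprostadil, where 1.88% of all genes passed. Those added were Angpt2 (0.61, adjusted p = 0.0267), Ereg (0.50, adjusted p = 0.0307), Fgf10 (0.49, adjusted p = 0.00144), Wnt5a (0.49, adjusted p = 0.0325), Csf1 (−0.33, adjusted p = 0.00713) and Il34 (−0.39, adjusted p = 0.0118).

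**Figure D4:**
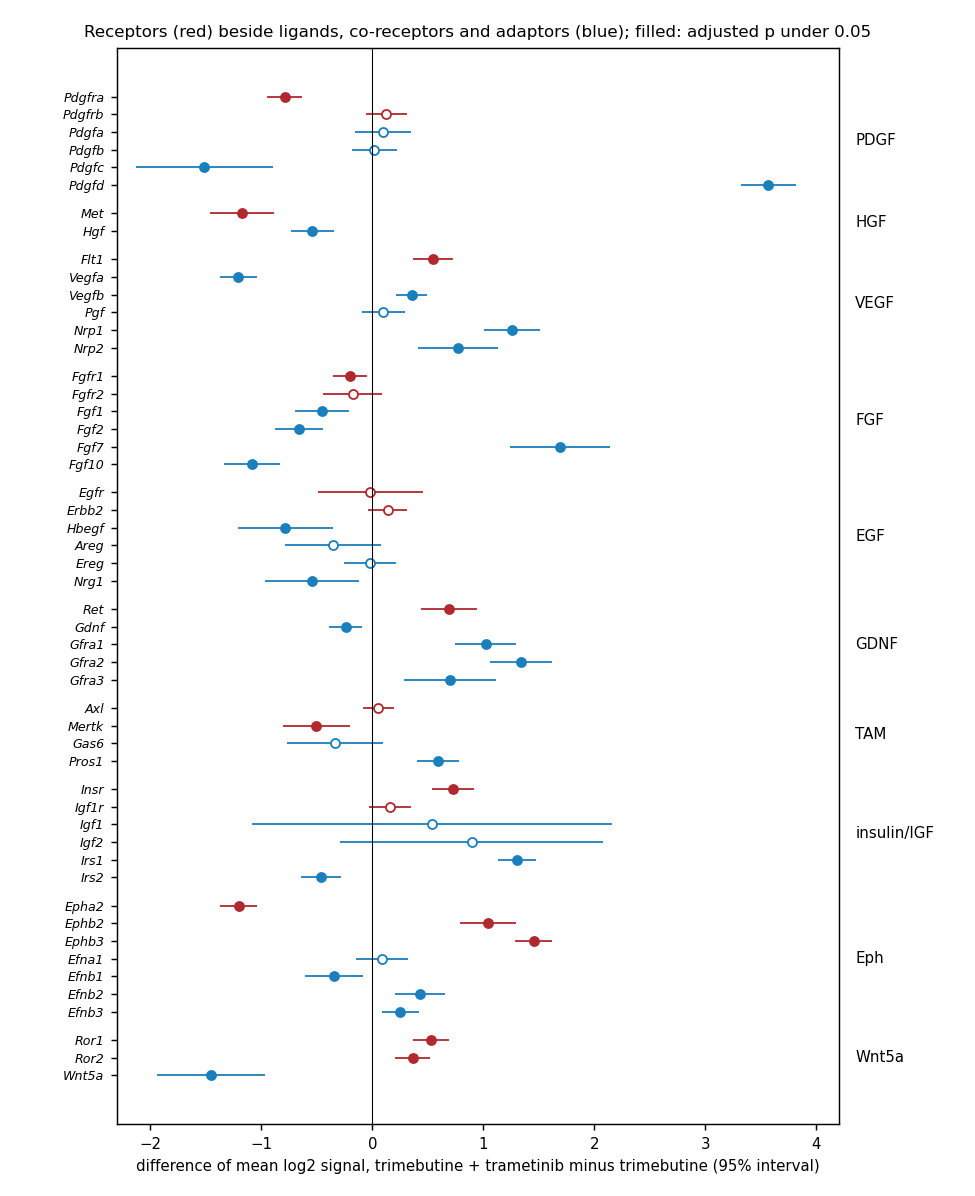
Difference of mean log2 expression when trametinib was added to trimebutine (horizontal axis) for receptors (red) and for their ligands, co-receptors and adaptors (blue), grouped by pathway. Bars are the 95% confidence interval and filled points passed an adjusted p of 0.05; Pdgfc and Hgf lie below 0 with Pdgfra and Met, while Wnt5a (−1.45) and Vegfa (−1.21) lie below 0 beside receptors that rose, and Pdgfd (3.57) lies farthest to the right.

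Of 13 co-receptors, which present ligands to the kinases, 6 rose and 2 fell, where 33.4% of all genes passed. Gfra2 rose by 1.34 (adjusted p = 1.03e-05) and Gfra1 by 1.02 (adjusted p = 7e-05), both partners of Ret, and Nrp1, which binds VEGF, rose by 1.26 (adjusted p = 7.87e-06). The syndecan genes Sdc1 (−0.54, adjusted p = 0.000146) and Sdc4 (−0.38, adjusted p = 0.000626) fell. Of 30 adaptors and effectors, 8 rose and 6 fell, beside the same 33.4% of all genes. Irs1, the docking protein of the insulin receptor, rose by 1.31 (adjusted p = 3.19e-07) and Irs2, its relative, fell by 0.46 (adjusted p = 0.00107). Shc2 rose by 0.82 (adjusted p = 0.000127) and Stat3 by 0.67 (adjusted p = 8.04e-06), while Nck2 fell by 0.95 (adjusted p = 9.82e-05) and Shc3 by 0.86 (adjusted p = 0.0128).

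Of 17 genes that attenuate or shed receptors, 3 rose and 7 fell, where 33.4% of all genes passed. Errfi1, which encodes an inhibitor of the EGF receptor family, read 11.52, 11.51 and 11.26 with trimebutine and 9.90, 9.95 and 9.67 with trametinib added. It fell by 1.59 (adjusted p = 5.1e-07), and its receptors Egfr and Erbb2 did not pass. Lrig1, another inhibitor of ErbB receptors, fell by 1.09 (adjusted p = 0.000177) and Socs3 by 0.75 (adjusted p = 0.000228). The receptor phosphatase gene Ptprk rose by 1.00 (adjusted p = 1.57e-06), Lrig2 by 0.29 (adjusted p = 0.00464) and the ubiquitin ligase gene Cblb by 0.24 (adjusted p = 0.0475). Of 8 further receptor tyrosine kinases outside the 43, Alk fell by 0.95 (adjusted p = 1.24e-06) and Ltk by 0.21 (adjusted p = 0.0259). The other 6 did not pass, where 33.4% of all genes passed. With the block Lmtk2 passed as well (−0.18, adjusted p = 0.0323), where 42% of all genes passed.

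Promoter sequences were examined for the receptors that moved with trametinib. RefSeq windows on build GRCr8, 250 bases before to 50 after the start, were at hand for 35 of the 43 receptors and for 14 of the 17 that changed. Of these 14, 4 held a match to a motif of AP-1, CREB or FOXO factors, which ERK, cyclic AMP and AKT signalling act on, and the 250 bases before their starts follow with the match in capitals, in the sense of the gene. Pdgfra lies on the minus strand (chr14:33408517-33408766) with an AP-1 match (TGANTCA) from −35 to −29, counted from the start. Epha2 lies on the plus strand (chr5:158888379-158888628) with a CRE match (TGACGTCA) from −52 to −45. Flt1 lies on the plus strand (chr12:12333180-12333429) with a CRE match from −124 to −117. Insr lies on the minus strand (chr12:6128804-6129053) with a FOXO match (TGTTTAC) from −100 to −94.
Pdgfra: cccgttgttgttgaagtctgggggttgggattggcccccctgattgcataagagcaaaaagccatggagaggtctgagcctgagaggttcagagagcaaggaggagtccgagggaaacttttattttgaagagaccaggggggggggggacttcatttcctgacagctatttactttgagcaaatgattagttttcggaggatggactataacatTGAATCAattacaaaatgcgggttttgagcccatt
Epha2: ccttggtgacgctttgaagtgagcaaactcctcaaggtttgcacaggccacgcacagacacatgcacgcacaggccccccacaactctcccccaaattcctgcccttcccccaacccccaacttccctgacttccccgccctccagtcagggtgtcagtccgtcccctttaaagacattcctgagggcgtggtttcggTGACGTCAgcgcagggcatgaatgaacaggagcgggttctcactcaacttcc
Flt1: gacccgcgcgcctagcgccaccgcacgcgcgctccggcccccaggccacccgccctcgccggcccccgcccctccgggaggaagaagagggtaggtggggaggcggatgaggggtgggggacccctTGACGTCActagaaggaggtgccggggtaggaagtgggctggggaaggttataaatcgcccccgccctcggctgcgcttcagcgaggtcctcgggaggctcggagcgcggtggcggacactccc
Insr: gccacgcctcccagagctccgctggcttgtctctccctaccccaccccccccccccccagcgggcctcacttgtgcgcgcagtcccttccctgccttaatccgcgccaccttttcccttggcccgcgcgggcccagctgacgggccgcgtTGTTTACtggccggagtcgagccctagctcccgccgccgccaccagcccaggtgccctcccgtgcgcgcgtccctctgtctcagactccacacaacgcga
The CRE match stood before a gene that fell (Epha2) and before one that rose (Flt1). Both strands were searched, and over 27457 rat promoter windows the AP-1 motif was found in 7.33%, the CRE in 1.91% and the FOXO motif in 3.76%. In the windows of the 35 receptors they were found in 2, 2 and 1. The ETS motif CCGGAAGT was found in none of the 35 and in 4.01% of all, GGGGCGGGG of SP and KLF factors in 8 and 10.42%, CACGTG in 1 and 6.65%, GGAATG of TEAD factors in 4 and 13.88%, and TATAAA in 2 and 14.26%. None of these 8 motifs was found in 8 of the 14 windows. A match describes these letters alone and says nothing of binding. The receptor windows were rich in G and C, with a median of 64.3% beside 52.3% over all windows, and 32 of 35 lay above that median.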

How the data were processed

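Total RNA (400 ng) from 12 cultures was made into cDNA and hybridised to 1-colour arrays, per the labels' protocols. Each deposited value is the log2 expression of 1 feature on 1 array. The submitters' processing notes name oligo and RMA, a method that gives all arrays 1 common distribution and so hides any change in the amount of RNA per cell. Their versions and settings, and the genome build behind the array annotation, were not given in the sources used here. Groups and replicate numbers came from the titles.

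Of 36685 features, 18511 had 1 gene symbol, 575 several and 17599 none. Entrez identifiers gave current symbols from the RefSeq table of GRCr8 (18394 matched, and 117 kept their older symbol). The brightest feature of a symbol was used, and each member had 1. Genes with a mean under the 25th percentile (5.83) were left out, and 13636 were tested. With limma 3.58.1 (R 4.3.3), 1 linear model held a mean for each group over the 12 arrays, by lmFit, contrasts.fit and eBayes, two-sided, with Benjamini-Hochberg adjusted p under 0.05 within each of 5 comparisons. The scripts were tested on simulated data. No pair of arrays held identical values.

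The groups share replicate numbers, and same-numbered arrays deviated together from their group means (18 pairs, r from 0.21 to 0.81, beside −0.71 to 0.10 in 36 pairs of different numbers). With the 3 isolates in the study's text, this was taken as pairing. The fit with the replicate number as a block was an alternative, and its values are given where they change the call of a member, or of a list gene that the text names. It had a median SE of 0.0722 beside 0.0867 without it.

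The members and gene lists were chosen with earlier results of these data known, so no count of members is independent of them. All members past the threshold in any comparison, with or without the block, were named with values, and the others by family. From each pathway list the 3 largest differences per direction were named, with the ligands of members that passed. Marker genes, ligands added by the block and Lmtk2 were named after their values were seen. The number of arrays limits the precision, and the p-values rest on the spread among cultures of the 3 isolates. Alternatives covered the low-signal filter, array scaling, features of a symbol, eBayes settings, the arrays in the fit and each array left out.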

Additional observations from a re-analysis of the deposited data

How the results depend on the processing

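No receptor that passed changed direction under any alternative run. When trametinib was added to trimebutine, 11 of the 17 receptors passed in every setting that tested them. Against vehicle 13 of 17 did so, and against alprostadil 16 of 20. Among the receptors in these counts, the filter at the 50th percentile did not test Ret, Ddr1, Mertk or Ephb6. Nor did it test Fgfr4, Ntrk3 and Tyro3, which were lost in other settings. Ret is in each of these counts, Ddr1 and Mertk in those against vehicle and alprostadil, and Ephb6 in that against alprostadil. Ret cleared the main low-signal limit only through the trametinib arrays. Those lost in some setting were Ddr1, Ephb6, Fgfr1, Fgfr4, Mertk and Ntrk3 against trimebutine, Ephb6, Fgfr4, Ntrk3 and Tyro3 against vehicle, and Erbb2, Fgfr1, Fgfr4 and Ntrk3 against alprostadil. With each array left out in turn the counts were 13 to 17, 13 to 17 and 17 to 19. A filter at the 50th percentile left 23 receptors to test and gave 11 against trimebutine, 10 against vehicle and 14 against alprostadil. Of the 9100 genes tested with it, 4160, 4309 and 4619 passed. Against trimebutine and against vehicle the share of receptors that passed was then close to that of all genes. For alprostadil against vehicle the 1 receptor called, Axl, became 0 without a filter, with median scaling, with the 2 groups alone in the fit and without each array (0 to 0), and the cause was not tested. The count of all genes for alprostadil was 53, 29 with the 2 groups alone, and 30 to 42 with an array left out. It was 257 with the replicate number as a block, which includes all 53. With the block the receptors called were 23 against trimebutine, 24 against vehicle and 25 against alprostadil, and the count for alprostadil against vehicle was still 1. Scaling moved the median of all genes by less than 0.1. Weak features limit the depth of what can be seen, as for Ret and Tek.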
